A study of Mus musculus with 16 samples.

Results

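The comparison described here is loss of CD45 in osteoclast cultures whose Flt3 gene is normal. Its members were the 4 libraries labelled Ptprc KO and the 4 labelled WT, 8 of the 16 RNA-seq libraries of the study, taken by their column names in the table of raw counts. The cultures were grown from CD11b-positive bone marrow of C57BL/6J mice that were either wild type or lacked Ptprc. Cells of all groups spent 3 days in M-CSF at 50 ng/ml and then received RANKL at 20 ng/ml. RNA (500 ng for a library) was collected as mature osteoclasts first formed, between days 3 and 5. The other 8 libraries carry a Flt3 internal tandem duplication knock-in, alone (FLT3 ITD) or with the Ptprc knockout (double mutant), and serve here as libraries in which the same loss can be measured again. Which part of Ptprc was deleted and the day of each culture were not given in the sources used here. The labels number the replicates but do not say that they are separate animals, so the p-values below measure the spread between cultures.

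CD45, the product of Ptprc, is a receptor-type protein tyrosine phosphatase found on nearly all nucleated blood cells. It is best known for removing the inhibitory C-terminal phosphate of Src-family kinases, which sets how strongly antigen, Fc and integrin receptors can signal. Osteoclasts arise from myeloid precursors under M-CSF and RANKL: RANK acts through TRAF6, NF-kappaB and AP-1 to switch on Nfatc1, receptors paired with ITAM adaptors supply costimulation, and Src is needed for the ruffled border through which bone is resorbed.

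Counts were sufficient to test 12093 of the 21936 genes in the table, at totals of 24211724 to 35773313 counts per library over the whole series. The main axis of variation among the 8 libraries did not follow genotype. The first principal component held 64.5% of the variance of the 1000 most variable genes, of which 1.53% lay between the groups. WT 3 and Ptprc KO 4 stood at its high end, at 40.2 and 50.1, where the leading genes included the myeloid genes F13a1, Cxcl2, S100a8 and S100a9. Across genes, which are not independent replicates, WT 3 and Ptprc KO 4 had a Spearman rho of 0.996 and WT 1 and Ptprc KO 1 one of 0.992. Each of these libraries was more alike to one of the other genotype than to its own group. Ptprc KO 2 and Ptprc KO 3 were the closest pair of the 8 (chi-square of 13.1 per gene, the next pair 23.5) and differed by more than sampling noise. Knockout cultures were also further apart. Their median SD of log2 CPM (counts scaled to library totals adjusted by edgeR's TMM factors) was 0.299 against 0.195 in WT. The SD was larger in the knockout group for 9287 genes, or 76.8% of those tested. Several results that rest on these libraries are given with and without them.

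Ptprc (ENSMUSG00000026395; GRCm38 chr1:138062861-138175708, minus strand) was low in each knockout library. It stood at 472, 412, 464 and 469 CPM in WT 1 to 4 and at 41.5, 36.6, 30.8 and 45.8 CPM in Ptprc KO 1 to 4. The groups were far apart, and the knockout level was 8.51% of WT. The log2 fold change was -3.55 (SE 0.25, 95% interval -4.08 to -3.02, edgeR adjusted p = 7e-06). Between 816 and 1379 counts of the gene remained per knockout library, and gene-level counts do not show from which exons. The same difference was present with FLT3 ITD (-2.63, SE 0.24, edgeR adjusted p = 0.00023), and the difference between both effects did not pass the threshold (interaction 0.92, adjusted p = 0.26).

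Besides Ptprc, 3 genes passed the threshold of an adjusted p under 0.05: Rbm44 and Glrp1 fell and Stard13 rose. In all, 4 of 12093 genes were called (0.0331%), 3 lower (0.0248%) and 1 higher (0.00827%). An unadjusted p under 0.05 was reached by 102 genes (0.843%), 41 higher (0.339%) and 61 lower (0.504%). That is less than the share of 0.05 that evenly spread p-values would give, so this cutoff serves below as a description. With voom and quality weights, 3848 genes (31.8%) had an unadjusted p under 0.05. DESeq2 called 11 genes (5 higher, 6 lower) and voom with quality weights 482 (301 higher, 181 lower), where the balance of directions is the opposite. With edgeR the number called was 2 without WT 4 and 7 without double mutant 3, whose spread enters the fit. Other differences below are given as values and not as changes.

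Rbm44 (chr1:91145089-91170795, plus strand), a gene for an RNA-binding protein described in male germ cells, was present at a low level in every WT library and nearly absent from the knockout. Its counts were 14, 32, 22 and 18 in WT 1 to 4 and 0, 1, 0 and 0 in Ptprc KO 1 to 4. The groups did not overlap. The ratio of the groups, 76.7-fold, has a counting interval of 13.4 to 3070, and the edgeR adjusted p was 0.007. It kept its call in 8 of 8 fits that left out 1 of the 8 libraries and lost it when the 8 libraries were fitted alone (edgeR adjusted p = 0.09, log2 fold change -5.68). In the FLT3 ITD cultures Rbm44 was measured with and without Ptprc, at 44 counts over the FLT3 ITD group and 91 over the double mutant (log2 fold change 0.87, SE 0.47, edgeR unadjusted p = 0.084). Rbm44 was the single gene of 12093 (0.00827%) with an interaction past the threshold, at 6.54 on the log2 scale (SE 0.88, edgeR adjusted p = 0.031). The interaction was lost in 12 of 16 edgeR fits without 1 library, with an adjusted p of 0.036 to 0.15 over the 16. It was also lost with the close libraries FLT3 ITD 1 and 3 summed (edgeR adjusted p = 0.066). That pair had a chi-square of 2.84 per gene, far closer than any other pair of the 16 (next 13.1) and still above sampling noise, and both are counted in the FLT3 ITD values given with n = 4. Without FLT3 ITD 4 the interaction passed for 17 genes, and without double mutant 3 for 56.

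Glrp1 (chr1:88499871-88510066, minus strand), which encodes a glutamine repeat protein, fell as far but varied more in WT. Its counts were 40, 107, 12 and 89 in WT 1 to 4 and 0, 0, 0 and 1 in Ptprc KO 1 to 4. WT 3 was the lowest of its group and still lay above the 4 knockout libraries. The ratio was 221-fold with a counting interval of 39.4 to 8780 (edgeR adjusted p = 0.022). The call was kept in 2 of 8 fits without 1 library: it was lost without WT 2 (adjusted p = 0.052), without WT 4 (adjusted p = 0.062) and without any 1 of the Ptprc KO libraries (adjusted p of 0.15 to 0.21). It was also lost in the fit of the 8 libraries alone (edgeR adjusted p = 0.13) and with log2(TPM + 1) (limma adjusted p = 1.0, log2 fold change -2.0). With FLT3 ITD the counts were 310 without and 72 with the Ptprc knockout, a log2 fold change of -2.16 (SE 0.68, edgeR unadjusted p = 0.0067, adjusted p = 0.12). The direction was the same in both backgrounds, and the log2 fold change with normal Flt3 was -7.2 (SE 1.06). The interaction was 5.05 on the log2 scale (SE 1.31, edgeR adjusted p = 0.25).

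Stard13 (chr5:151037510-151233836, minus strand) encodes a GTPase-activating protein of RhoA and Cdc42 with a lipid-binding START domain. It stood at 0.346, 0.424, 0.275 and 0.284 CPM in WT 1 to 4 and at 3.28, 3.15, 3.44 and 12.6 CPM in Ptprc KO 1 to 4. All knockout libraries were above all WT libraries, and Ptprc KO 4 was far above the other knockout libraries. The log2 fold change was 4.06 (SE 0.53, edgeR adjusted p = 0.007), and 3.28 without Ptprc KO 4 (edgeR adjusted p = 0.0032). The call was lost without WT 4 (edgeR adjusted p = 0.062) and in the fit of the 8 libraries alone (edgeR adjusted p = 0.13). With FLT3 ITD the level was 0.941 ± 0.386 CPM without and 0.853 ± 0.284 CPM with the Ptprc knockout (SD, n = 4 each; log2 fold change -0.15, edgeR unadjusted p = 0.76). The interaction was -4.21 (SE 0.7, edgeR adjusted p = 0.16). Gm42906 overlaps Stard13 on the same strand, so reads of the pair may have been divided between them.

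**Figure D1:**
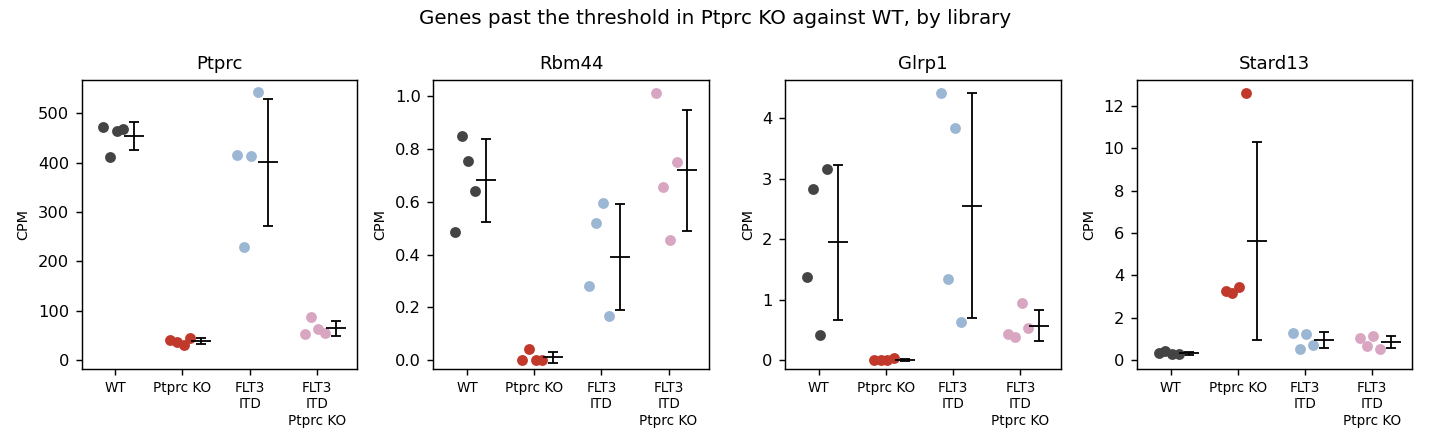
Levels of the 4 genes past the threshold in each library of the 4 genotypes, in CPM for Ptprc, Stard13, Rbm44 and Glrp1; points are libraries. Ptprc was low in both knockout groups, Rbm44 was near 0 in Ptprc KO alone, and Stard13 was raised in Ptprc KO, with Ptprc KO 4 at 12.6 CPM.

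The promoters of Ptprc, Glrp1 and Stard13 are shown because the called genes are those on which the comparison turns, and because myeloid genes, Ptprc among them, often carry the core of the PU.1 site, GAGGAA, near their start. Sequences are from RefSeq (GRCm38.p6), in which 3 of the 4 called genes were matched and Rbm44 was not, 250 bases before to 50 after the annotated start, read 5′ to 3′ on the gene's strand. Capitals mark GAGGAA, which was searched on both strands. Ptprc lies at chr1:138175256-138175555 (minus strand), Glrp1 at chr1:88510017-88510316 (minus strand) and Stard13 at chr5:151190144-151190443 (minus strand).
Ptprc: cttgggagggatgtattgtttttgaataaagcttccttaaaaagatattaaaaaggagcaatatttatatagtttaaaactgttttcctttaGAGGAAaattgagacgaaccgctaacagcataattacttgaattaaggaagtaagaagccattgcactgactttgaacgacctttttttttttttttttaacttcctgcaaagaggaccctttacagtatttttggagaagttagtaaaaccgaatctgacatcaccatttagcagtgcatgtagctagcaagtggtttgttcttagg
Glrp1: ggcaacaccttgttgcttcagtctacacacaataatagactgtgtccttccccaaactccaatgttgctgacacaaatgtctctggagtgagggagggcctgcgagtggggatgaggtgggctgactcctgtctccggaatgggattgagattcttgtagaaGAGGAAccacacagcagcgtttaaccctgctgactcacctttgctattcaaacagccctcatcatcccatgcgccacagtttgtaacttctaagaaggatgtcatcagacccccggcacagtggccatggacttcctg
Stard13: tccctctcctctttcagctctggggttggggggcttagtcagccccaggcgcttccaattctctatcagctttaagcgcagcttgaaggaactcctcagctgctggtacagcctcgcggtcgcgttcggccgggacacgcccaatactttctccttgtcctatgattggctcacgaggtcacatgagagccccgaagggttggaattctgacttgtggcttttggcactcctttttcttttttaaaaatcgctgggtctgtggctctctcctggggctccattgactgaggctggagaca
Ptprc and Glrp1 each hold 1 GAGGAA and Stard13 none, where 28.3% of the 32851 RefSeq promoters of this length hold it on either strand. The Ptprc window is poor in G and C (33.7%, median of all promoters 52.7%), and those of Glrp1 (51.3%) and Stard13 (54.7%) are near the median. The windows printed for Ptprc and Stard13 lie wholly inside their GENCODE genes, so the outer starts of these genes are not shown. A match is a description of the letters only.

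The libraries of WT and Ptprc KO did not overlap for 170 genes (1.41%, the called genes included), 95 higher (0.786%) and 75 lower (0.62%) in the knockout. The direction of this count depended on the scale. With the deposited TPM (scaled to gene length and library total) it was 156 genes, 31 higher and 125 lower. The CPM also carry TMM factors, and which step of the scaling made the difference was not tested. The median log2 fold change over all tested genes was 0.02 with CPM and -0.08 with log2(TPM + 1), so values below are to be read against that shift. The 12 genes with positive and 12 with negative values of lowest unadjusted p among the non-overlapping genes of at least 2 CPM are described next, by function and chromosome.

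Enzymes and regulators of chromosome 13 made up one set. Akr1c12 (chr13:4268176-4279433), an aldo-keto reductase gene, stood at 17.8, 20.1, 12.1 and 12.3 CPM in WT and at 2.25, 2.8, 2.08 and 1.93 CPM in the knockout. The knockout libraries were close together and well below WT, yet the gene missed the threshold (log2 fold change -2.78, SE 0.46, edgeR adjusted p = 0.06). It passed when the 8 libraries were fitted alone (edgeR adjusted p = 0.01). Ero1b, which drives disulphide formation in the endoplasmic reticulum, was at 28.5 ± 3.33 CPM in WT and 14.6 ± 2.05 CPM in the knockout (SD, n = 4; -0.96, SE 0.19). Ggps1, which makes the geranylgeranyl diphosphate that anchors the small GTPases of osteoclasts to membranes, was at 20.3 ± 0.992 and 13.9 ± 1.42 CPM (-0.54, SE 0.14). Akr1e1, another aldo-keto reductase, differed by -0.59 (SE 0.21). On the same chromosome Gpr137b, a lysosomal membrane protein gene, was higher in the knockout, at 834, 1460, 1420 and 800 CPM against 654, 699, 561 and 641 CPM in WT (0.82, SE 0.31). Ptprc KO 2 and 3 accounted for the upper pair of these values, while Ptprc KO 1 and 4 lay closer to WT. Zmynd11, a reader of histone H3.3 (0.35, SE 0.13), and Asb13, a SOCS-box protein gene (0.4, SE 0.17), were the other 2 with positive values.

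Neighbours on chromosome 5 differed in both directions. Trip6 (chr5:137309654-137314404), a LIM-domain adaptor of focal adhesions, stood at 5.74, 5.36, 8 and 8.1 CPM in WT and at 20.1, 28.1, 16.8 and 16.7 CPM in the knockout. The lowest knockout library held more than the highest WT library by a wide margin (log2 fold change 1.59, SE 0.31, edgeR adjusted p = 0.32). Mospd3, a membrane-contact protein gene, was at 31 ± 1.91 CPM in WT and 21.5 ± 2.25 CPM in the knockout (SD, n = 4; -0.53, SE 0.11). Zfp157, a zinc finger gene, differed by -0.47 (SE 0.15) and Nxpe5 by -2.25 (SE 0.75). WT libraries of Nxpe5 ranged from 4.22 to 14 CPM.

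On chromosome 1, 10 of the 28 named genes were found, Ptprc, Rbm44 and Glrp1 among them. Steap3 (chr1:120190757-120272705), an endosomal ferrireductase of iron uptake, was at 108, 129, 102 and 108 CPM in WT and at 159, 181, 187 and 177 CPM in the knockout. Its groups were tight and separate (0.66, SE 0.14, edgeR adjusted p = 0.5). Ddx59, an RNA helicase gene, and Zfp281, a zinc finger transcription factor gene, lie 1.76 and 1.55 Mb from Ptprc on the side of the chromosome start. They stood at 8.11 ± 0.771 against 13.5 ± 1.37 CPM and at 38.4 ± 1.29 against 51.1 ± 6.3 CPM (WT against knockout, SD, n = 4; 0.73, SE 0.2, and 0.41, SE 0.12). Gpr55, a receptor for lysophosphatidylinositol, was at 15.3, 16.7, 8.28 and 14.4 CPM in WT and 5.17, 4.07, 3.36 and 1.04 CPM in the knockout (-2.0, SE 0.6). B3gnt7, a glycosyltransferase gene, was at 1.51 ± 0.352 and 5.46 ± 1.1 CPM (1.85, SE 0.59), and Sh3bp4, an endocytic SH3-domain protein gene, differed by -0.52 (SE 0.19).

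Ugt1a8 (chr1:88087813-88219004), a UDP-glucuronosyltransferase gene that attaches glucuronic acid to small molecules, had 0 counts in all 4 WT libraries and 60, 45, 44 and 82 counts in Ptprc KO 1 to 4. Against a floor of 3 counts over the WT group the knockout was at least 86.3-fold higher. The gene did not pass the test (edgeR unadjusted p = 0.00097, adjusted p = 0.9), and its model overlaps the other Ugt1a genes, among which reads may have been divided. With FLT3 ITD it had 2 counts without the Ptprc knockout and 34 with it, all of the latter in double mutant 3.

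The remaining 6 named genes lie on 4 other chromosomes. H2-Q7 and H2-Q6 of chromosome 17, class I histocompatibility genes of the Qa-2 group, were at 5.06 ± 1.76 against 11.8 ± 2.32 CPM and 1.49 ± 0.574 against 3.46 ± 0.794 CPM (SD, n = 4; 1.22, SE 0.43, and 1.22, SE 0.55). They are near-identical copies, and counting may have split reads between them. Ide on chromosome 19, which encodes the insulin-degrading enzyme, differed by 0.79 (SE 0.19), with WT 2 at 176 CPM and the other WT libraries at 97.5 to 108 CPM. Lipn, a lipase gene of that chromosome, differed by -0.69 (SE 0.25), Trim16, a ubiquitin ligase gene on chromosome 11, by -0.55 (SE 0.19), and Eef1a2, a translation elongation factor gene on chromosome 2, by -2.22 (SE 0.81). Whether reads were counted by strand was not given in the sources used here. Ddx59, B3gnt7, Zmynd11, Ggps1, Gpr55 and Ugt1a8 have a gene on the opposite strand. Ptprc, Ide, Zmynd11, Asb13, Ero1b, Sh3bp4, Lipn and Trim16 overlap a gene on the same strand, which for Trim16 is the protein-coding Fbxw10.

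**Figure D2:**
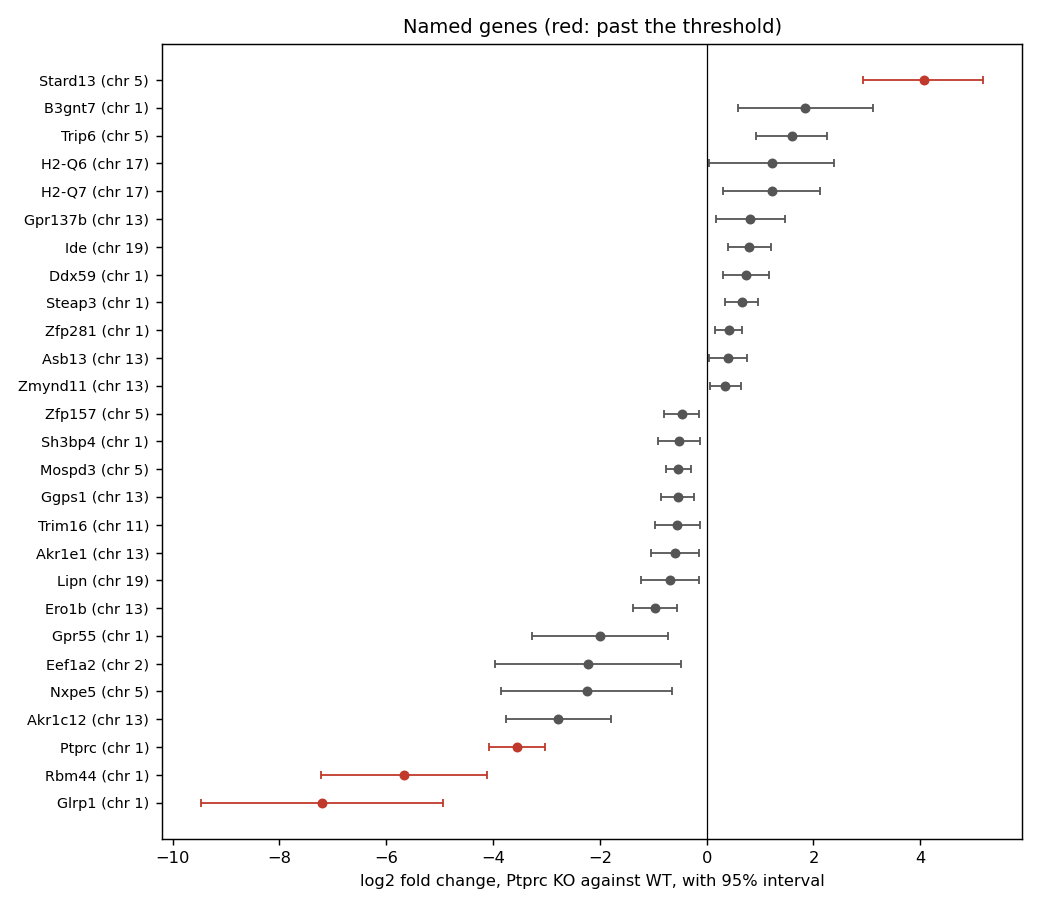
Log2 fold change of Ptprc KO against WT with its 95% interval for 27 named genes (Ugt1a8, with 0 counts in WT, is left out), with the chromosome of each. Red points passed the threshold: Ptprc, Rbm44 and Glrp1 lie below 0 and Stard13 above it.

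The FLT3 ITD cultures show the level of each named gene in 8 further libraries, which entered its choice only through the shared estimate of spread. The choice fixed that Ptprc KO and WT do not overlap, so the 8 further libraries are what is added. Of the 170 genes without overlap, Ptprc KO lay outside all 12 other libraries for 14 (8.24%, or 0.116% of all tested genes) and WT for 15 (8.82%, or 0.124%). On chromosomes 1 and 5 it was mostly the Ptprc KO cultures that stood apart. For 7 of the 10 named genes of chromosome 1 (Ptprc, Rbm44, Glrp1, Steap3, Ugt1a8, Ddx59 and B3gnt7) and 4 of the 5 of chromosome 5 (Stard13, Trip6, Mospd3 and Zfp157), the 4 Ptprc KO libraries lay outside the range of all 12 others. Ptprc itself was low in the double mutant as well, at a mean of 64.8 CPM. Its mean was 38.7 CPM in Ptprc KO and 401 CPM in FLT3 ITD. Steap3 was at 114, 132, 111 and 81.4 CPM in FLT3 ITD and 120, 110, 128 and 95.8 CPM in the double mutant, so that all 12 were below the lowest Ptprc KO library, 159 CPM. Trip6 was at 9.71, 9.66, 8.69 and 5.04 CPM in FLT3 ITD and 3.86, 2.32, 6.97 and 4.59 CPM in the double mutant. The double mutant cultures, which lack Ptprc as well, were thus below the Ptprc KO range of 16.7 to 28.1 CPM and on the WT side. Mospd3 was at 33.9 ± 4.01 and 32.7 ± 1.63 CPM (SD, n = 4 each), against 31 ± 1.91 CPM in WT.

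On chromosome 13 it was the WT cultures that stood apart. For Akr1c12, Ero1b, Ggps1 and Akr1e1, 4 of the 7 named genes there, the 4 WT libraries lay above all 12 others, and no named gene of that chromosome had Ptprc KO apart from the rest. Ero1b was at 21.6, 10.2, 16.7 and 13.9 CPM in FLT3 ITD and 17.2, 19.5, 15.8 and 16.1 CPM in the double mutant, where the lowest WT library held 25.1 CPM. The FLT3 ITD cultures, in which Ptprc is intact, were thus on the side of Ptprc KO. Ggps1 was at 15.6 ± 2.19 and 15.2 ± 2.45 CPM and Akr1e1 at 21.1 ± 5.88 and 20.6 ± 4.19 CPM (FLT3 ITD and double mutant, SD, n = 4 each). WT also stood apart for Trim16, Eef1a2 and H2-Q7, and for Stard13, where WT was lowest and Ptprc KO highest. For Akr1c12, Ero1b, Ggps1, Akr1e1, Trim16 and Eef1a2 the log2 fold change of the double mutant against FLT3 ITD was between -0.91 (SE 0.43, Akr1c12) and 0.19 (SE 0.82, Eef1a2). H2-Q7 differed by 1.69 (SE 0.43) between those groups and H2-Q6 by 2.22 (SE 0.55), in the same direction as between Ptprc KO and WT. Double mutant 2 went against this. H2-Q7 was at 45.3, 8.58, 49.9 and 59.1 CPM in double mutant 1 to 4 and at 11.1 to 15.5 CPM in FLT3 ITD. H2-Q6 was at 26.5, 3.56, 21.3 and 27.9 CPM in double mutant 1 to 4 and at 2.04 to 8.03 CPM in FLT3 ITD.

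The share of genes with low p-values was largest on chromosomes 1 and 13. Of the tested genes on chromosome 1, 27 of 722 (3.74%, exact 95% interval 2.48 to 5.39) had an unadjusted p under 0.05, and on chromosome 13, 12 of 469 (2.56%, 1.33 to 4.43). On chromosome 5 the share was 9 of 764 (1.18%). All chromosomes but chromosome 1 together gave 75 of 11361 (0.66%, 0.52 to 0.827). Intervals treat genes as independent, cover counting error only and are a description.

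**Figure D3:**
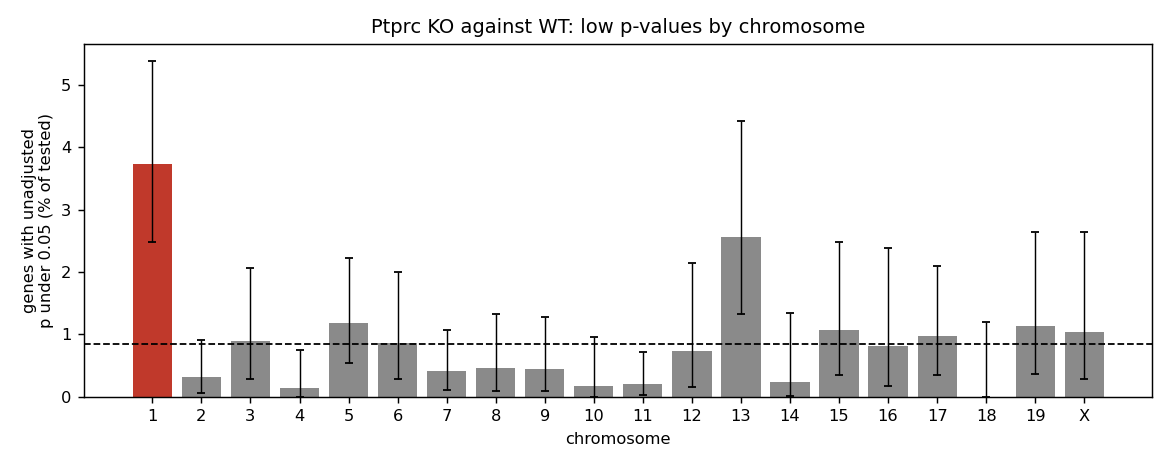
Share of tested genes with an unadjusted p under 0.05 in Ptprc KO against WT, in percent, by chromosome. Bars for chromosomes 1 (3.74%) and 13 (2.56%) are the tallest, and the dashed line marks the share over all tested genes, 0.843%.

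Among windows around Ptprc the share was largest in the nearest. Within 5 Mb of its start 5 of 39 genes had an unadjusted p under 0.05 (12.8%, exact 95% interval 4.3 to 27.4, Ptprc included), within 20 Mb 14 of 147 (9.52%, 5.31 to 15.5), within 40 Mb 17 of 295 (5.76%), and further off on the chromosome 10 of 427 (2.34%). The 20 Mb share moved with single libraries, as did the share over all tested genes (0.843% with all libraries). It was 6.12% without any 1 of the WT libraries (all genes 0.614 to 0.828%), 5.44% without Ptprc KO 2 (0.54%), 4.08% without Ptprc KO 3 (0.459%), 6.8% without Ptprc KO 1 (1.32%) and 10.2% without Ptprc KO 4 (1.41%). The genes of this window had values of both signs and included Sox13, a transcription factor gene, Lad1, which encodes an anchoring filament protein, Rgs2 and Rgs18, regulators of G-protein signalling, and Glrx2, a mitochondrial glutaredoxin gene. These 5 were chosen after their values were seen.

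In windows of 10 Mb along the genome, 212 of 274 windows with tested genes held no gene at an unadjusted p under 0.05. A further 10 windows held 3 or more, 43 of the 102 genes together (42.2%), and 424 of the tested genes (3.51%). These windows are picked out by that count, which is a description. Of the 10, 5 lie on chromosome 1. The one from 80 to 90 Mb, distant from Ptprc, held 7 of 48 tested genes: Gpr55, B3gnt7, Ugt1a9, Ugt1a8, Ugt1a6b, Glrp1 and Sh3bp4. The Ugt1a members overlap one another and are not independent. The first 2 windows of chromosome 13 held 5 of 18 and 5 of 28 genes, and that from 130 to 140 Mb of chromosome 5 held 6 of 108. Of the 10 windows, 8 held values of both signs. Those of chromosome 1 from 120 to 130 Mb (3 genes, Steap3 among them) and from 150 to 160 Mb (3 genes) held 1 sign each, above and below 0.

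**Figure D4:**
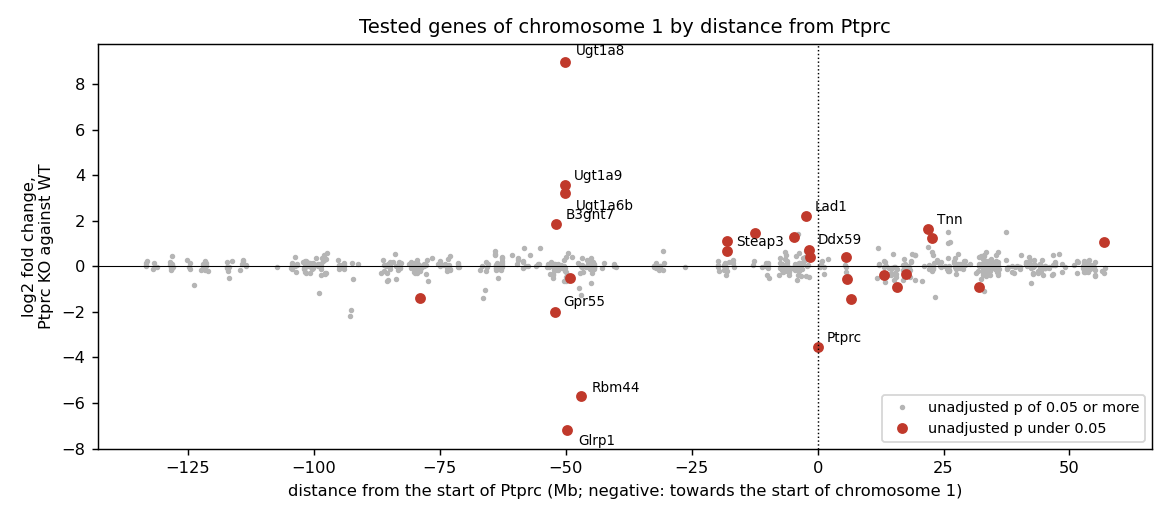
Log2 fold change of Ptprc KO against WT for the 722 tested genes of chromosome 1 by distance of their start from that of Ptprc, in Mb. Red points have an unadjusted p under 0.05; of 27 such genes 14 lie within 20 Mb of Ptprc, 8 near -50 Mb, Glrp1, Rbm44 and the Ugt1a genes among them, and 5 elsewhere.

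The double mutant and FLT3 ITD groups share no library with the 8 described here, so the loss of Ptprc could be compared over separate cultures. Of the 102 genes, 48 had the same sign there (47.1%), where 28% of all tested genes did. An unadjusted p under 0.05 in that comparison was reached by 32 of the 102, where 25.7% of all tested genes did so (3104 genes, with 1 past the adjusted threshold, Ptprc). Of the 32, 14 had the same direction, 5 higher and 9 lower, and 18 the opposite. How many genes pass in that comparison rested on 2 libraries: 1798 were called without FLT3 ITD 4 and 1315 without double mutant 3.

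The 14 genes of one direction were chosen after their values were seen. Beside Ptprc, Glrp1, Ddx59, H2-Q7 and H2-Q6 they included Pop4, a subunit of ribonuclease P, at -0.99 (SE 0.37) with normal Flt3 and -1.66 (SE 0.38) with FLT3 ITD. Pop4 stood at 50.6 ± 5.89 CPM in WT and 25.5 ± 4.52 CPM in Ptprc KO (SD, n = 4 each). It was at 55.4, 97.2, 53.5 and 15.2 CPM in FLT3 ITD 1 to 4. In the double mutant it was at 17.9, 12.5, 20.2 and 19.4 CPM, so FLT3 ITD 4 lay within the double mutant range. Ptger1, a prostaglandin E2 receptor gene, had log2 fold changes of -1.7 (SE 0.46) and -1.44 (SE 0.48), Ulk4, a pseudokinase gene, -1.11 (SE 0.32) and -0.71 (SE 0.32), and Batf2, an AP-1 family transcription factor gene, 0.61 (SE 0.25) and 0.55 (SE 0.25). None but Ptprc passed over all genes in both backgrounds. Among the 18 of opposite direction, also chosen after their values were seen, were Trip6 (1.59 and -0.9), Ptpro (-0.39 and 0.63), Men1, the gene of the chromatin adaptor menin (-0.38 and 0.58), and the small GTPase gene Rnd1 (0.68 and -1.43).

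The pathways through which CD45 acts and osteoclasts form are described next by lists of genes. No list member was called, where 0.0331% of all tested genes were. Each list is given by the number of tested members with a log2 fold change above 0 and by the median. Of all tested genes 54.9% were above 0, at a median of 0.02, and with log2(TPM + 1) 25.4%, at a median of -0.08. In bulk RNA, fewer cells of a type and less RNA per cell cannot be told apart.

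RNA of CD45 substrates and their regulators had a median near 0. Phosphorylation and activity of the proteins, on which CD45 acts, were not measured in these libraries. Of 13 measured members, 5 were above and 8 below 0 (median -0.06), and for 9 of them the 95% interval lay within 1 log2 unit on either side of 0. Lyn, an abundant myeloid Src-family kinase, was at 137, 152, 164 and 185 CPM in WT and 136, 156, 152 and 167 CPM in the knockout (-0.06, SE 0.14). Csk, which adds the phosphate that CD45 removes, was at 146, 146, 130 and 144 against 160, 137, 132 and 134 CPM (-0.01, SE 0.11). The libraries of both genes overlapped. Src was at 439, 502, 313 and 387 CPM in WT and 419, 568, 584 and 308 CPM in the knockout (0.19, SE 0.38), where the WT libraries lay between the knockout extremes. The lymphoid kinase genes Lck and Blk and the CD45-associated protein gene Ptprcap had at most 9 counts in any of the 8 libraries and were not tested.

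Other protein tyrosine phosphatases were above 0 in 10 of 15 (median 0.06). Ptpn6, which encodes SHP-1, differed by -0.03 (SE 0.14) and Ptpn11, which encodes SHP-2, by 0.05 (SE 0.16). Ptpro, an osteoclast receptor phosphatase, had the lowest p of the list, at 78.5, 63.8, 54.7 and 72.5 CPM in WT and 65.9, 50.9, 46.2 and 42.9 CPM in the knockout (-0.39, SE 0.16, edgeR unadjusted p = 0.03). The groups overlapped, and the direction was the opposite with FLT3 ITD.

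Genes of ITAM costimulation and RANK signalling had medians near 0. Of 18 ITAM members, 8 were above 0 (median -0.04): the adaptor genes Tyrobp and Fcer1g differed by 0.2 (SE 0.22) and -0.03 (SE 0.34), and the kinase genes Syk and Btk by 0.03 (SE 0.18) and 0.04 (SE 0.09). Of 23 RANK and M-CSF members, 16 were above 0 (median 0.05), but 8 of 23 with log2(TPM + 1), where the median was -0.06. For 21 of the 23 the 95% interval lay within 1 log2 unit of 0. The receptor genes Tnfrsf11a (RANK) and Csf1r differed by 0.03 (SE 0.22) and 0.13 (SE 0.25), and Traf6 by 0.31 (SE 0.24). Nfatc1, the master regulator of the programme, was at 463, 499, 496 and 507 CPM in WT and 502, 760, 610 and 382 CPM in the knockout (0.2, SE 0.51). The 4 WT libraries were within a narrow band, and the knockout libraries lay on both sides of it.

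The resorption machinery differed between knockout cultures more than between genotypes. Of 18 members 17 were above 0 (median 0.31, and 0.12 with log2(TPM + 1)), but the mean log2 CPM was 9.37, 10.39, 10.28 and 9.55 in Ptprc KO 1 to 4 against 9.64, 9.8, 9.69 and 9.84 in WT 1 to 4. Ptprc KO 2 and 3 were above all WT libraries, and Ptprc KO 1 and 4 below them. Ctsk, the collagen-degrading cathepsin, was at 7302, 9366, 7856 and 8103 CPM in WT and 5960, 16700, 14900 and 6177 CPM in the knockout (0.42, SE 0.6). Without Ptprc KO 2 and 3 the median was -0.29, with 2 of 18 above 0. Car2, which supplies protons for acid secretion (0.59, SE 0.64), and Slc4a2, the chloride-bicarbonate exchanger (0.45, SE 0.51), were likewise highest in Ptprc KO 2 and 3.

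Genes of fusion and osteoclast identity split in the same way. Of 16 members 12 were above 0 (median 0.36, and 0.19 with log2(TPM + 1)), with means of 7.65, 8.4, 8.3 and 7.65 in Ptprc KO and 7.68 to 7.78 in WT. Calcr, the calcitonin receptor of mature osteoclasts, was at 85.3, 72.8, 76.4 and 72.8 CPM in WT and 67.6, 226, 193 and 63.5 CPM in the knockout (0.84, SE 0.55). Itgb3, the beta 3 integrin of the sealing zone, differed by 0.7 (SE 0.47), and Dcstamp, a fusion receptor gene, by 0.11 (SE 0.5). Gpr137b, described above, was the member whose 4 knockout libraries all lay above WT. Without Ptprc KO 2 and 3 the median of the list was -0.19, with 4 of 16 above 0.

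Podosome and actin ring genes had a median of 0.11 (18 of 20 above 0), which was 0.0 with log2(TPM + 1) (10 of 20) and -0.14 without Ptprc KO 2 and 3 (6 of 20). Cttn, which encodes cortactin, differed by 0.49 (SE 0.64), and Ptk2b, the Pyk2 kinase gene downstream of integrins, by 0.07 (SE 0.23). Rac1 and Cdc42, GTPases of the actin ring, differed by 0.16 (SE 0.12) and 0.09 (SE 0.12). Repressors of differentiation had a median of 0.0 (7 of 13 above 0). In that list Irf8 was at 21.8, 12.4, 53 and 35.9 CPM in WT and 12.9, 16.6, 10 and 65.3 CPM in the knockout (-0.23, SE 0.8). WT 3 and Ptprc KO 4 held the highest Irf8 level of their groups.

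Oxidative phosphorylation genes were also highest in Ptprc KO 2 and 3. All 24 members were above 0 (median 0.24, and 0.1 with log2(TPM + 1)), with means of 7.97, 8.57, 8.64 and 7.64 in Ptprc KO 1 to 4 and 8.0, 8.25, 7.66 and 8.07 in WT 1 to 4. Without Ptprc KO 2 and 3 the median was -0.19 and 0 of 24 were above 0. Glycolysis and hypoxia genes had a median of -0.04 (7 of 18 above 0), with WT 4 highest at a mean of 8.4. Cholesterol biosynthesis genes were below 0 in 16 of 16 (median -0.24), but their means overlapped between the groups. These were 4.54, 5.03, 5.09 and 5.95 in WT 1 to 4 and 4.49, 5.13, 5.35 and 4.78 in Ptprc KO 1 to 4. WT 4 lay above all other libraries. Sqle, the squalene epoxidase, was at 25.3, 44.6, 69.9 and 111 CPM in WT and 27, 39.7, 50.7 and 58 CPM in the knockout (-0.51, SE 0.45), where WT 4 was highest and the other libraries overlapped.

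Cell cycle genes were below 0 in 24 of 24 (median -0.26), yet the highest library was a knockout. Their mean log2 CPM was 6.18, 6.06, 5.59 and 6.18 in WT 1 to 4 and 6.72, 5.13, 5.3 and 5.28 in Ptprc KO 1 to 4. Mki67, the proliferation marker, was at 343, 307, 196 and 323 CPM in WT and 476, 156, 170 and 144 CPM in the knockout (-0.3, SE 0.65). Ptprc KO 1 was above all WT libraries and the other 3 below them. Without Ptprc KO 1 the median was -0.91, and without Ptprc KO 2 and 3 it was 0.13 with 24 of 24 above 0.

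Inflammatory genes were high in 1 library of each group. Of 17 members 13 were above 0 (median 0.31), with a mean log2 CPM of 1.78, 1.28, 3.32 and 2.11 in WT and 1.65, 1.8, 1.48 and 4.04 in the knockout. Cxcl2, a neutrophil chemokine, was at 0.588, 0.61, 32.9 and 1.88 CPM in WT and 1.17, 1.31, 0.869 and 106 CPM in the knockout (1.61, SE 1.94). WT 3 and Ptprc KO 4 were high and the other 6 low. Without Ptprc KO 4 the median was -0.83, with 1 of 17 above 0. MHC class II genes followed these 2 libraries, with Cd74, the invariant chain, at 138, 75.5, 664 and 195 CPM in WT and 115, 158, 61.7 and 1200 CPM in the knockout. Type I interferon genes had a median of -0.08 (6 of 18 above 0), and WT 1 and Ptprc KO 1 had the highest means, 5.27 and 4.92. JAK-STAT feedback genes had a median of -0.03 (7 of 17 above 0), with Cish, a STAT5 target gene, at 0.8 (SE 0.44). Osteoclast coupling factors, which act on bone-forming cells, had a median of 0.23 (6 of 10 above 0), with Sphk1, the sphingosine kinase gene, at 1.1 (SE 0.89).

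**Figure D5:**
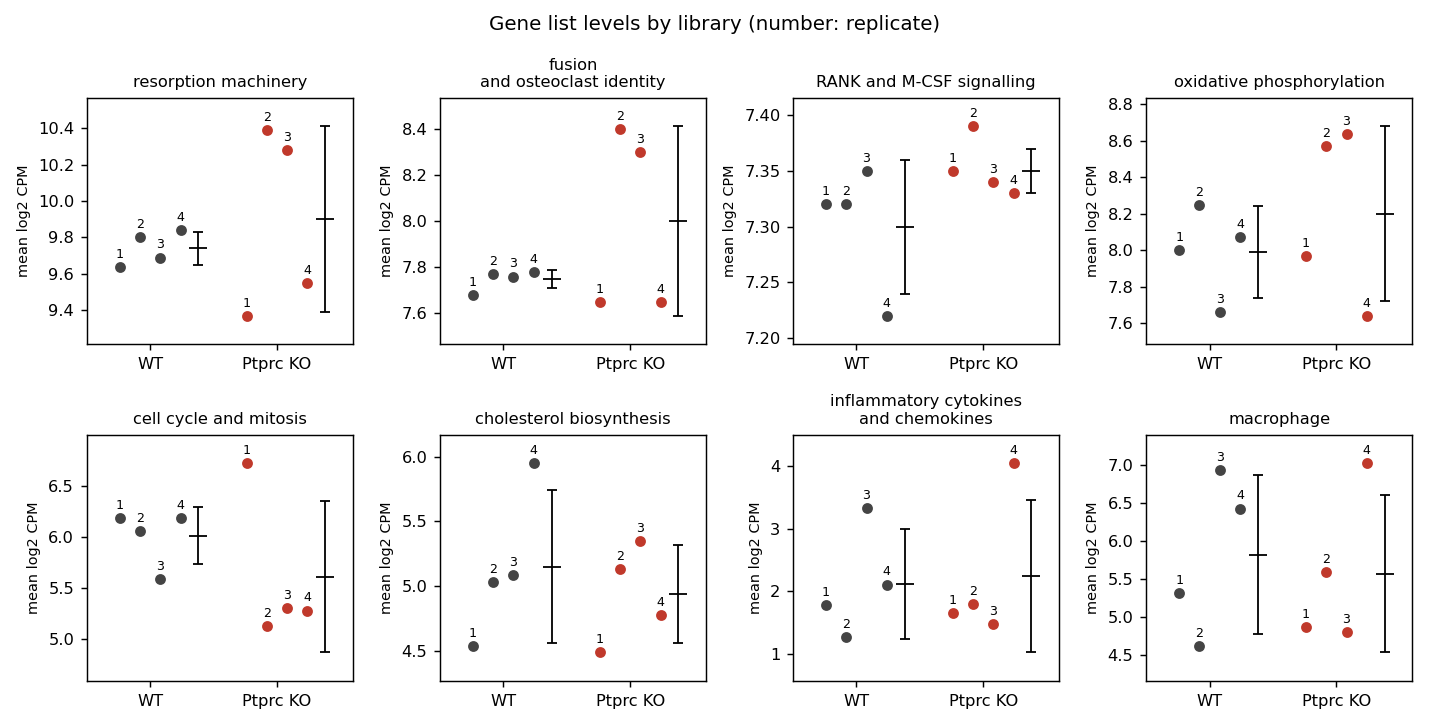
Mean log2 CPM of the tested members of selected gene lists in each of the 4 WT and 4 Ptprc KO libraries, with replicate numbers beside the points. Ptprc KO 2 and 3 lie above the WT libraries for resorption (10.39 and 10.28) and fusion genes, Ptprc KO 1 is highest for the cell cycle (6.72), and Ptprc KO 4 for inflammatory genes (4.04).

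Markers of other cells moved with single cultures. The osteoclast genes Ctsk, Acp5 and Mmp9 were present in all 8 libraries, Acp5 at 4657 CPM or more. Macrophage markers had a median of -0.14 (5 of 14 above 0), and their summed level was 3940 to 17800 CPM in WT and 3420 to 20200 CPM in the knockout, highest in WT 3 and Ptprc KO 4. Lyz2, the macrophage lysozyme, was at 4247, 2192, 13040 and 6262 CPM in WT and 2378, 2028, 1352 and 15030 CPM in the knockout. The part of these cells in the list values above was not tested. Neutrophil markers were above 0 in 11 of 11 (median 0.86), at summed levels of 2.55 to 110 CPM in WT and 7.91 to 217 CPM in the knockout. Without Ptprc KO 4 their median was -0.6 with 3 of 11 above 0.

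Stromal markers were below 0 in 6 of 7 (median -2.17), at summed levels of 16.8 to 49.4 CPM in WT and 8.77 to 18.6 CPM in the knockout. Col1a2, a collagen of bone-forming cells, was at 0.588, 5.07, 2.47 and 14.3 CPM in WT and 0.571, 0.175, 0 and 3.29 CPM in the knockout (-2.46, SE 1.3), so the groups overlapped. Progenitor markers were above 0 in 5 of 6 (median 0.77), with Cd34 at 0.38, 0.504, 0.412 and 0.355 CPM in WT and 1.32, 0.744, 0.605 and 0.786 CPM in the knockout. The groups of Cd34 did not overlap (1.06, SE 0.47, edgeR unadjusted p = 0.039). Mast cell proteases Mcpt8, Mcpt4 and Prss34, the T cell gene Cd3g and the eosinophil peroxidase gene Epx had 0 counts in all 8 libraries. Other members of their lists were present. T cell lists summed to 39.3 to 80.3 CPM in WT and 35.5 to 84.8 CPM in the knockout, and eosinophil lists to 37.6 to 52.9 and 37.5 to 66.7 CPM. Mast cell and basophil markers summed to 1.79 to 2.88 and 2.41 to 6.13 CPM, and the 2 tested members were above 0 (median 0.86). B cell markers were present at trace levels, up to a summed 1.6 CPM in WT and 3.86 CPM in the knockout.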

How the data were processed

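RNA-seq was measured in 16 osteoclast cultures of 4 genotypes, of which the 4 WT and 4 Ptprc KO libraries are compared here. The authors deposited raw counts per gene, not normalized, and a second table of TPM values scaled to gene length and library total. Per the submitters' processing notes, featureCounts 2.0.3, STAR 2.7.6a, UMI-tools 1.1.1, cutadapt 4.2 and bcl2fastq 2.20.0.422 were used with GRCm38.p6, and their settings were not given in the sources used here. Per the labels' protocols the kit keeps strand and its adaptors carry molecular identifiers. Positions came from GENCODE M21 of the same build (21817 gene IDs found).

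The test was edgeR's robust quasi-likelihood fit of 4 group means over 16 libraries (edgeR 4.0.16, R 4.3.3), after filterByExpr (12093 genes kept) and TMM scaling, two-sided, with Benjamini-Hochberg adjustment over all tested genes at 0.05. The common dispersion was 0.137 (coefficient of variation 0.37), and 12 residual degrees of freedom remained. Log2 CPM used a prior count of 2. Where a group had 0 counts the floor was 3 counts over the group, and ratios with 1 count have exact 95% binomial intervals. Intervals and floors cover counting error only.

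Named genes were Ptprc, all genes past the threshold, and up to 12 non-overlapping genes each way with the lowest p at a mean of at least 2 CPM in the higher group, without predicted models and Y-linked genes, as well as list members. The members, lists and naming rule were chosen with earlier results of these data known. Alternatives were the 8 libraries alone, a replicate block, each library left out, RLE scaling, all genes unfiltered, a minimum mean count of 50, DESeq2 1.42.0, voom with quality weights (limma 3.58.1), and limma on log2(TPM + 1) or log2(TPM + 0.1) where the mean TPM reached 1. Chosen after seeing the data were 1 surrogate variable (sva 3.50.0), the block within 8 libraries, FLT3 ITD 1 and 3 summed, and leaving out Ptprc KO 2 and 3 together or Ptprc KO 4 and WT 3 together. Scripts were tested on simulated counts.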

Additional observations from a re-analysis of the deposited data

Results flagged for a closer look

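Among 110 groups of 4 libraries examined (28 named genes and the list scores, WT and Ptprc KO), 12 held a library whose gap to the nearest other exceeded 0.829 of the group's range. Chance gives such a gap in about 1 of 20 groups. Genes at or near 0 counts (Rbm44 and Glrp1 in the knockout) are marked by a single read.

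In log2 CPM, Ptprc in WT 2 was 8.69 where the other WT libraries were at 8.86 to 8.88. Rbm44 in Ptprc KO 2 was -3.16 and Glrp1 in Ptprc KO 4 was -3.27, with the others of each group at -3.88. Stard13 in Ptprc KO 4 was 3.66, above 1.69 to 1.81 in the other knockout libraries. Ide in WT 2 was 7.46 (others 6.61 to 6.75) and Trim16 in WT 4 was 3.92 (others 4.11 to 4.12).

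Of the list means, the fusion and osteoclast identity list in WT 1 was 7.68, with the other WT libraries at 7.76 to 7.78. Ptprc KO 4 was apart for repressors of osteoclast differentiation, at 6.51 (others 5.21 to 5.4), and for inflammatory genes, at 4.04 (others 1.48 to 1.8). Ptprc KO 1 was apart for the cell cycle, at 6.72 (others 5.13 to 5.3), and for eosinophil markers, at 0.88 (others 1.7 to 1.81). Ptprc KO 2 was apart for glycolysis and hypoxia genes, at 8.0 (others 7.44 to 7.53).

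The effect of Ptprc loss on Rbm44 differed between normal Flt3 and FLT3 ITD by 6.54 on the log2 scale (edgeR interaction, adjusted p = 0.031). That call was lost in 12 of 16 fits without 1 library, and the Ptprc KO group held 1 count of the gene.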

How the results depend on the processing

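The fall of Ptprc kept its call in all alternatives, at log2 fold changes of -3.73 to -3.38. The number of genes called, 4, was 2 with a mean count of at least 50, 2 in the fit of the 8 libraries only, 2 with log2(TPM + 1), 2 with log2(TPM + 0.1), 11 with DESeq2 and 482 with voom with quality weights. Added after seeing the data, it was 8 with 1 surrogate variable, 2 without both Ptprc KO 2 and Ptprc KO 3, and 2 without both Ptprc KO 4 and WT 3. With 1 of the 16 libraries left out it was 2 (without WT 4) to 7 (without double mutant 3). The replicate numbers do not pair the cultures (correlations of same-numbered deviations 0.47, 0.24, -0.63 and 0.01); under a replicate block 1 gene, Ptprc, was called (edgeR adjusted p 0.058 for Rbm44, 0.073 for Stard13 and 0.16 for Glrp1), and 2 under the block with 8 libraries only.

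The share of genes at an unadjusted p under 0.05 within 20 Mb of Ptprc, 9.52% (all genes 0.843%), was 4.08% without both Ptprc KO 2 and Ptprc KO 3 (all genes 0.591%) and 4.08% (without Ptprc KO 3, all genes 0.459%) to 10.2% (without Ptprc KO 4, all genes 1.41%) with 1 library left out. For the double mutant against FLT3 ITD, 1 gene was called, and 1 to 1798 with 1 library left out. For the interaction, 1 gene was called: 0 with a mean count of at least 50, 0 with a replicate block, 0 with FLT3 ITD 1 and 3 summed, and 0 to 56 with 1 library left out. The causes were not tested. Of 584 values of named genes under alternatives, 526 stayed on their side of the threshold, 35 passed it, 23 lost it and none changed sign. Of 508 list medians, 20 moved by more than the spread between libraries. At 14 to 32 counts per WT library of Rbm44, depth limits the ratio more than its direction.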
